A study of Rattus norvegicus with 167 samples.

Results

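The late lesion site of rats treated with neurotrophin-3 (NT3) was compared with uninjured spinal cord. The arrays were chosen by their deposited titles: 3 of the lesion site on day 90 and 3 on day 60 after injury, 6 in all, against 3 of uninjured cord, which makes 9 of the 167 arrays of the series. In the study, adult female Wistar rats had a complete mid-thoracic transection with removal of a 5 mm segment, and a chitosan tube carrying NT3 bridged the gap. In the other arms the tube held no NT3 (ET) or was left out (LC, the lesion control), and 5 mm of tissue was taken at the lesion site and next to it, rostrally and caudally. Further groups used here, of 3 arrays each, were the LC lesion site on days 90 and 60, the NT3 rostral segment on days 90 and 60, and the NT3 lesion site on days 30 and 20. At the lesion site the ET arrays analysed here are of day 3 alone, so what the tube adds and what NT3 adds cannot be told apart there. The labels give neither the animal behind an array nor the age of the uninjured rats, so p-values measure a spread between arrays, which may be technical. That spread was pooled over every group in the fit, not the compared arrays alone. A gene that varies in other groups can therefore have a large SE here. The difference reported throughout is the mean of the day 90 and day 60 group means minus the uninjured mean, on the log2 scale, and a gene is said to have risen or fallen only where its adjusted p was under 0.05.

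Removing a stretch of cord leaves a gap with no neurons or glia of its own, which fills with tissue from outside: fibroblasts of the meninges and vessels, blood-derived macrophages, Schwann cells and axons from nearby roots. Such tissue is rich in collagen, keeps macrophages filled with myelin lipid for a long time and has a basement membrane at its border with the remaining cord. NT3 is a growth factor that acts mainly through the receptor TrkC, encoded by Ntrk3, and through the shared neurotrophin receptor encoded by Ngfr. In an array of a whole segment, fewer cells of a type and less RNA per cell cannot be told apart.

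Array medians ran from 7.10 to 7.25 on the log2 scale over the series, and the highest correlation between any 2 arrays was 0.998. Correlations were 0.992 to 0.995 among the day 90 arrays, 0.972 to 0.988 among the day 60 arrays and 0.729 to 0.831 between late and uninjured arrays. The log2 gap between the 3′ and 5′ beta-actin probe sets, a sign of RNA breakdown, was 1.12 to 1.70 on the late arrays and 1.35 to 2.29 on the uninjured ones, the last value being that of uninjured replicate 2. The mean level of skeletal muscle genes relative to uninjured cord was 2.49, 2.28 and 2.32 on the day 90 arrays and 3.11, 1.0 and 3.84 on the day 60 arrays, against -0.03, -0.04 and 0.07 on the uninjured arrays. The level was lowest on day 60 replicate 2. The part of muscle in the other results was not tested beyond a fit with this level as a covariate, whose values are given with the muscle genes.

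The late lesion site differed from uninjured cord at most genes. Of 12044 tested genes, 8654 (71.9%) passed the test, 4262 of them higher (35.4%) and 4392 lower (36.5%). The difference was at least 2-fold for 1666 genes that rose (13.8%) and 1470 that fell (12.2%), at least 4-fold for 628 and 407, and at least 16-fold for 84 and 6. All 6 late arrays lay above all 3 uninjured arrays for 3659 genes (30.4%) and below them for 3708 (30.8%). The median difference over all tested genes was -0.0036, so the lists below are read against a median near 0 and against these percentages. Day 90 alone differed from uninjured cord at 7816 genes (64.9%) and day 60 alone at 8553 (71.0%). On both days 3409 genes rose, 3467 fell and 8 had opposite signs.

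The 12 leading genes that rose are known from several cell types, and which cells made them here was not tested. Mmp12, a macrophage elastase, had log2 levels of 10.69, 10.84 and 10.97 on the day 90 arrays, 12.41, 11.80 and 11.89 on the day 60 arrays, and 4.63, 4.97 and 5.06 on the uninjured arrays (difference 6.55, SE 0.19, adjusted p = 5.7e-24). Ccl21, a chemokine of lymphatic vessels and lymphoid tissue, had log2 levels of 11.84, 12.02 and 11.78 on day 90, 11.00, 11.56 and 11.61 on day 60, and 5.40, 5.23 and 4.94 in uninjured cord (difference 6.45, SE 0.29, adjusted p = 3.7e-19). Every late array exceeded every uninjured array for both genes by a wide margin. Mmrn1 (5.44), a large glycoprotein of endothelium and platelets, Gdf10 (5.88), a secreted factor of the TGF-beta family, Aspn (5.19), a small proteoglycan, and Aqp1 (5.23), a water channel of vessels outside the barrier, are known from stromal or vascular cells, though not from these alone. Clec7a (5.20), a receptor of myeloid cells, Fabp4 (5.35), a fatty acid carrier of adipocytes and macrophages, and Ifitm1 (5.32), an interferon-induced membrane protein, complete the set with the fast muscle genes Myl1 (6.14), Myh2 (5.55) and Myl11 (5.47).

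The 12 leading genes that fell were mostly neuronal. Slc32a1, the transporter that loads GABA and glycine into vesicles, had log2 levels of 6.21, 6.34 and 6.0 on the day 90 arrays, 4.92, 4.78 and 4.82 on the day 60 arrays, and 9.83, 10.29 and 10.04 on the uninjured arrays (difference -4.54, SE 0.29, adjusted p = 5.2e-15). Gad1, an enzyme that makes GABA, had 7.42, 7.87 and 7.54 on day 90, 6.12, 6.35 and 6.80 on day 60, and 11.19, 11.06 and 11.11 in uninjured cord (difference -4.10, SE 0.44, adjusted p = 7.6e-10). The groups did not overlap for either gene, and the day 90 arrays read higher than the day 60 arrays of Slc32a1. The others were Olfm3 (-4.54), the serotonin receptor gene Htr2c (-4.34), the potassium channel gene Kcnc1 (-4.33), the GABA receptor subunit gene Gabra5 (-4.09), Ankrd34b (-3.96), Lamp5 (-3.94), Sema4d (-3.83), Rapgefl1 (-3.80), the glycine receptor subunit gene Glra2 (-3.76) and Slc12a5 (-3.76), the chloride exporter of mature neurons.

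**Figure D1:**
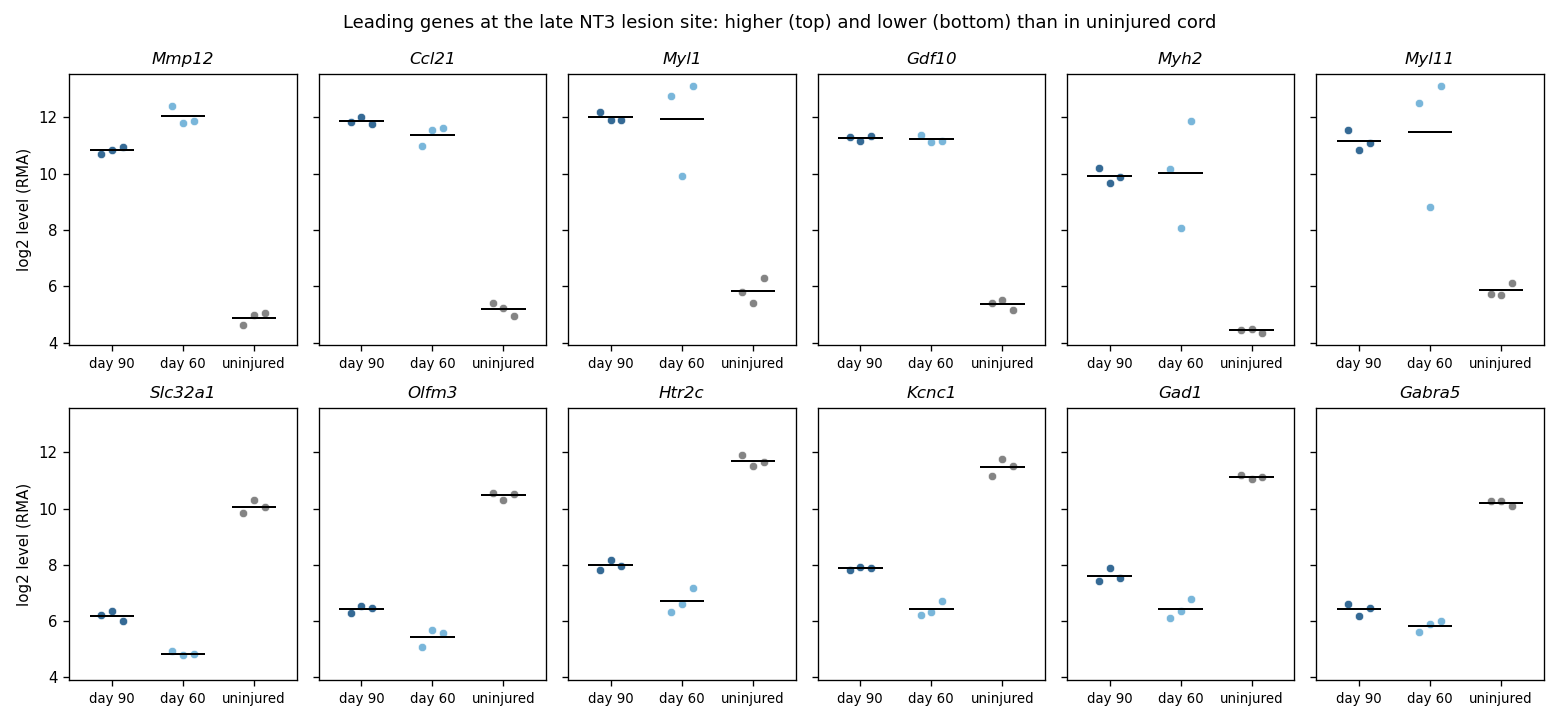
Log2 levels of 6 leading genes that rose (top row) and 6 that fell (bottom row), with 1 point per array, day 90 at the left, day 60 in the middle and uninjured cord at the right of each panel, and a bar at each group mean. In all 12 panels the 6 late arrays lie on one side of the 3 uninjured arrays, and Slc32a1 reads higher on day 90 than on day 60.

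Genes of fibrillar collagens rose together. Of 27 tested genes for fibrillar collagens and their assembly, 26 rose and 0 fell, with a median difference of 2.92. Postn, periostin, a matrix protein of wound fibroblasts, had log2 levels of 10.10, 9.99 and 10.05 on day 90, 10.90, 11.03 and 11.61 on day 60, and 5.69, 5.98 and 5.70 in uninjured cord (difference 4.83, SE 0.17, adjusted p = 8.2e-22). Col1a1, a chain of type I collagen, had 12.18, 12.06 and 12.03 on day 90, 12.30, 12.75 and 12.37 on day 60, and 8.00, 8.46 and 8.45 in uninjured cord (difference 3.98, SE 0.10, adjusted p = 2.8e-25). Neither gene's groups overlapped, and both read lower on day 90 than on day 60. Lox (4.33) and Loxl1 (4.22), which cross-link collagen and elastin, Fn1 for fibronectin (4.01), Col3a1 (4.01) and Tnc for tenascin-C (2.55) rose with them. Spp1, osteopontin, was the member that did not pass the test, with log2 levels of 11.18, 11.52 and 12.10 at the lowest, median and highest late array, and 11.64, 10.85 and 11.51 in uninjured cord (difference 0.23, SE 0.18, adjusted p = 0.26), and its groups overlapped.

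All 9 tested small leucine-rich proteoglycans, which bind collagen fibrils and set their width, rose, with a median difference of 3.58. Aspn led them, and Omd (3.74, SE 0.15), Lum (3.68, SE 0.10), Fmod (3.62, SE 0.20), Ogn (3.12, SE 0.17) and Dcn for decorin (3.0, SE 0.09) rose at least 8-fold. Basement membrane genes rose in 14 of 15 cases (median 2.57), among them the laminin genes Lama2 (3.36), Lamb1 (2.99) and Lama4 (2.85), Nid2 (3.11), Nid1 (2.75) and Col4a1 (2.89). The list of chondroitin sulfate proteoglycans of the neuropil, which also holds link proteins and tenascin-R, went the other way: 8 of 10 fell and 0 rose (median -1.26). Its largest falls were those of Hapln4 (-3.67) and Hapln2 (-2.99), link proteins of the nets around neurons and nodes, and Tnr for tenascin-R (-2.07). None of these is a proteoglycan core. The cores Acan for aggrecan (-1.33) and Bcan for brevican (-1.19) fell by less. Ncan, neurocan, had log2 levels of 5.84, 5.99 and 6.58 at the lowest, median and highest late array, and 6.0, 5.74 and 5.98 in uninjured cord (difference 0.19, SE 0.22, adjusted p = 0.45), and Cspg4, NG2, had 7.23, 7.30 and 7.36 at the lowest, median and highest late array, and 6.86, 7.65 and 7.20 in uninjured cord (difference 0.05, SE 0.11, adjusted p = 0.69). Both genes had overlapping groups, and without uninjured replicate 2 Cspg4 rose (0.26, adjusted p = 0.029). Vcan, versican, fell (-0.86), but its probe sets gave different calls, and their mean differed by -0.36 (adjusted p = 0.053).

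Enzymes that remodel this matrix rose in 15 of 19 cases and fell in 3 (median 1.71). Mmp2 (4.21, SE 0.12), a gelatinase of fibroblasts, and Mmp14 (2.59, SE 0.13), the membrane enzyme that activates it, rose with the inhibitor Timp1 (3.56, SE 0.14). The 3 that fell, Mmp17 (-0.80), Mmp24 (-0.84) and the inhibitor Timp4 (-0.76), include genes of neurons and astrocytes. Markers of meningeal fibroblasts rose in 14 of 16 cases (median 2.20), with Cdh1 (4.15), Crabp2 (4.0), Foxc1 (3.2), Igf2 (2.91), the retinoic acid enzyme Aldh1a2 (2.68) and Pdgfrb (2.65). Aldh1a1 was the member that fell (-2.59, SE 0.28). Smooth muscle and pericyte genes rose in 9 of 12 cases (median 1.33), Acta2 by 1.45, Tagln by 1.21 and the pericyte gene Rgs5 by 0.80.

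Endothelial genes moved in both directions. Of 17 tested genes 10 rose and 3 fell (median 0.61). Aqp1, Emcn (2.01, SE 0.13) and Vwf for von Willebrand factor (1.17, SE 0.24) rose, as did Plvap (0.56, SE 0.17), which marks leaky vessels. The genes that fell were barrier transporters: Slco1c1 for thyroid hormone (-1.95, SE 0.39), Mfsd2a for lipids (-1.85, SE 0.20) and Slc2a1 for glucose (-0.34, SE 0.11). Cldn5, the tight junction protein, had log2 levels of 10.14, 10.54 and 11.04 at the lowest, median and highest late array, and 10.29, 10.71 and 10.52 in uninjured cord (difference 0.06, SE 0.24, adjusted p = 0.84), with overlapping groups.

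**Figure D2:**
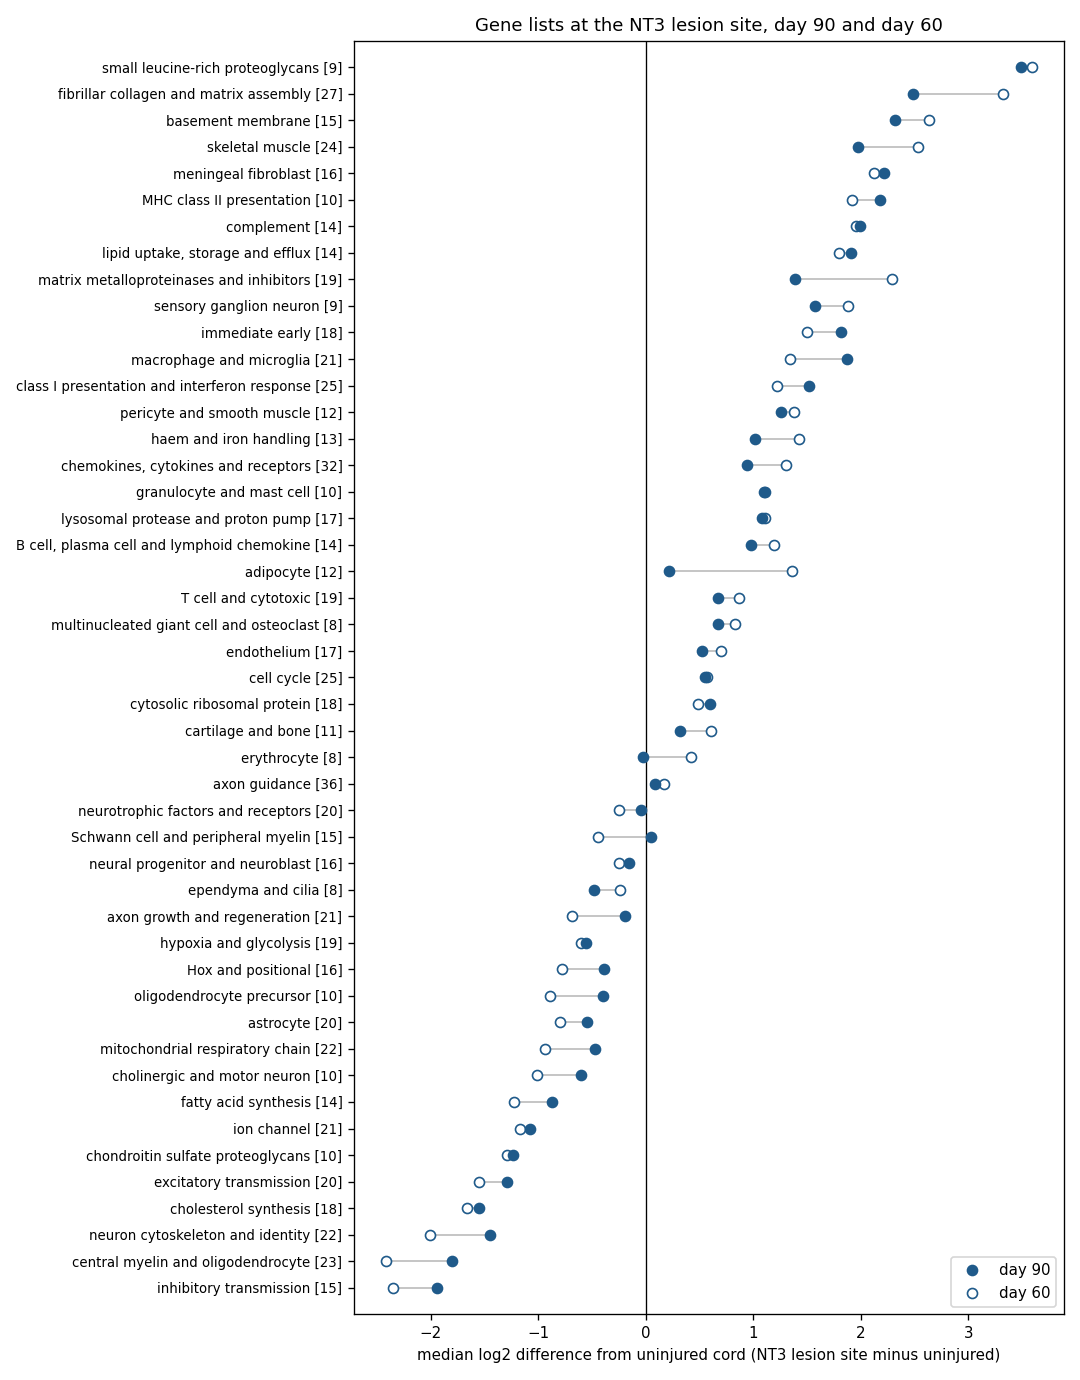
Median log2 difference of the tested members of each gene list, on day 90 (filled) and on day 60 (open), both minus uninjured cord, with lists ordered by the mean of both days and the number of tested members in brackets. Small leucine-rich proteoglycan, collagen and basement membrane lists lie furthest to the right, at a late median of 3.58, 2.92 and 2.57. Inhibitory transmission and myelin lie furthest to the left, at -2.46 and -2.05.

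Macrophage genes were high on every late array. Of 21 tested markers 18 rose and 0 fell (median 1.62). Gpnmb, a glycoprotein of lipid-laden macrophages, had log2 levels of 13.88, 14.03 and 14.06 on day 90, 14.15, 14.25 and 14.38 on day 60, and 9.10, 9.06 and 9.18 in uninjured cord (difference 5.01, SE 0.07, adjusted p = 6.2e-32). Cd68, a lysosomal protein of macrophages, had 11.13, 11.28 and 11.13 on day 90, 11.03, 10.96 and 11.26 on day 60, and 6.55, 6.50 and 6.56 in uninjured cord (difference 4.59, SE 0.13, adjusted p = 1.6e-24). The late and uninjured readings of both were far apart, and the late ones lay close together. Mrc1 (4.09, SE 0.15) and Cd163 (1.94, SE 0.39), receptors of perivascular and blood-derived macrophages, rose, and so did Aif1 (1.08, SE 0.19), which microglia and macrophages share. The microglial genes behaved otherwise: Cx3cr1 had log2 levels of 7.06, 7.43 and 7.62 at the lowest, median and highest late array, and 7.51, 7.44 and 7.62 in uninjured cord (difference -0.14, SE 0.16, adjusted p = 0.45) and P2ry12 had 9.32, 9.62 and 9.89 at the lowest, median and highest late array, and 10.26, 9.71 and 10.17 in uninjured cord (difference -0.43, SE 0.20, adjusted p = 0.054). Neither passed the test, though P2ry12 did without uninjured replicate 2 (-0.60, adjusted p = 0.021).

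Genes of lipid handling rose in 12 of 14 cases (median 1.90). Cd36, a scavenger receptor for oxidised lipid, rose (3.65, SE 0.26), as did Abca1, which exports cholesterol (2.18, SE 0.10), Ch25h, which makes 25-hydroxycholesterol (2.61, SE 0.19), and Lpl (2.50, SE 0.25). Of 17 lysosomal genes 11 rose and 3 fell (median 1.10): Ctsc (3.14), Gusb (2.23), Ctsh (1.94), Ctsb (1.12) and Ctsd (0.90) encode enzymes that digest cargo, and the 3 that fell, Atp6v1b2 (-1.15), Atp6v1a (-1.06) and Atp6v0d1 (-0.52), encode subunits of the proton pump, which neurons also use. Genes of osteoclasts and giant cells were split, 4 of 8 higher and 2 lower (median 0.76). Ctsk, a collagen-degrading protease, rose (4.40, SE 0.12) with Acp5 (3.38, SE 0.18) and Nfatc1 (1.60), while Ckb (-1.01) and Tnfrsf11a (-1.14) fell. In iron handling, Cp for ceruloplasmin (3.82, SE 0.12), Steap4 (3.15) and the haem enzyme Hmox1 (1.46, SE 0.15) were among the 9 of 13 genes that rose, and Tfrc, the transferrin receptor (-1.52, SE 0.19), and Slc11a2 (-0.62) fell.

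Complement genes rose in 13 of 14 cases (median 1.95). Serping1 (4.21, SE 0.09), the C1 inhibitor, C1s (3.95, SE 0.12), a protease of the classical pathway, Cfd, factor D (4.02, SE 0.21), and Cd55, which protects host cells (3.17, SE 0.26), led them, and C1qa rose by 1.35. The central component C3 did not pass the test, with log2 levels of 9.63, 9.71 and 9.91 at the lowest, median and highest late array, and 9.98, 9.76 and 9.67 in uninjured cord (difference -0.07, SE 0.33, adjusted p = 0.86).

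Genes of both classes of antigen presentation rose. MHC class II molecules, written RT1-B and RT1-D in the rat, present peptides to helper T cells and are made by macrophages, dendritic cells and B cells. Their promoters are known for an X and a Y box, and those of interferon-induced genes for an interferon-stimulated response element. The promoters of 4 class II genes that rose are shown because all 4 hold the Y box, CTGATTGG, here in capitals, and each runs from 250 bases before to 50 after the start of the gene, on the gene's strand, in RefSeq's GRCr8.
RT1-Ba: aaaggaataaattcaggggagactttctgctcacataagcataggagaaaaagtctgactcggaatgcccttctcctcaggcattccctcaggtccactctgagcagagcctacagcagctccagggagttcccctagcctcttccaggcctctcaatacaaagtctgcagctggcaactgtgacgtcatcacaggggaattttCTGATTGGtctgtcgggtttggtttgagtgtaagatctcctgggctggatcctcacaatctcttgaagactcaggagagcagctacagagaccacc
RT1-Bb: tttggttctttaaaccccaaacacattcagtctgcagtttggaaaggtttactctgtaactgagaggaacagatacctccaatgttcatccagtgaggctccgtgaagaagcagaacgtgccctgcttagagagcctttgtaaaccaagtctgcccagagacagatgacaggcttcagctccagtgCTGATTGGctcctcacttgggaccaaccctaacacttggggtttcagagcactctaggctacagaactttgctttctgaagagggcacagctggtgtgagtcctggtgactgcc
RT1-Da: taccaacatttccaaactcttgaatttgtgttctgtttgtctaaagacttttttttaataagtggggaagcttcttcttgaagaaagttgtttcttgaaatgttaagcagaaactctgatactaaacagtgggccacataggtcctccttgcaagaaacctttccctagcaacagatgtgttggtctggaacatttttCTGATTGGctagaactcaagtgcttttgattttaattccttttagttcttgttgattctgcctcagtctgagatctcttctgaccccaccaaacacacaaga
RT1-Db1: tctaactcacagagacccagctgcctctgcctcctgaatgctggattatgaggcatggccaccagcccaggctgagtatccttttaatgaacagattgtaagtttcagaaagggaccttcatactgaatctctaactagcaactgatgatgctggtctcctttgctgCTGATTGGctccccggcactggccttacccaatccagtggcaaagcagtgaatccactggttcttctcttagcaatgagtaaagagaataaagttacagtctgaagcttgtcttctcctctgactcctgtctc
These lie at chr20:4576807-4577106 (plus strand), chr20:4604069-4604368 (minus strand), chr20:4515165-4515464 (plus strand) and chr20:4560113-4560412 (minus strand). Of the 10 tested class II genes 8 had a promoter in the table, and the Y box was found on either strand in 4 of these and in 3.5% of all 33469 promoters. Cd74, Cd86 and RT1-DMa, members of the list that also rose, had 0 matches in their windows. Only the exact letters were searched, so variants of the box were not counted. For the interferon and class I list the element searched was a pair of GAAA separated by any 2 bases, on either strand, which 14 of the 20 members with a promoter held, against 3.92% of all promoters. Of these 14 promoters 4 are shown, with the element in capitals, also where it stands on the other strand. Mx1, Psmb9 and Irf1, which also rose, had 0 matches in their windows.
Gbp2: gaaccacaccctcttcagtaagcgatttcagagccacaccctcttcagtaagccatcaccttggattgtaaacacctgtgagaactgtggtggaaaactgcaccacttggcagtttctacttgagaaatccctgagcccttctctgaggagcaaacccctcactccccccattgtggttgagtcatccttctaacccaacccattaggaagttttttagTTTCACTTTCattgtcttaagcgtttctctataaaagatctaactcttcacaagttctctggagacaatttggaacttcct
Ifit3: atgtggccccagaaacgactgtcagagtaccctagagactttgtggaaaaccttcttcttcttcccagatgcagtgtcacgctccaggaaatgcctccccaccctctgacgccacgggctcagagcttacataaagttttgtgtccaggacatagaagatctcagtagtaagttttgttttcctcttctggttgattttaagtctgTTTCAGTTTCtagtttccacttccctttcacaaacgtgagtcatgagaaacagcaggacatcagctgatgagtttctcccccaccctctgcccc
Psmb8: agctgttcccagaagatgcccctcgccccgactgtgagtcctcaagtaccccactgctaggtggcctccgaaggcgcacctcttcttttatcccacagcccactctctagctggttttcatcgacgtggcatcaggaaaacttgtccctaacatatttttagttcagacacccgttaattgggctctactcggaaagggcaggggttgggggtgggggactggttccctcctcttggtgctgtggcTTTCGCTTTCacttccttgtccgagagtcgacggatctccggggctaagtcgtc
Tap1: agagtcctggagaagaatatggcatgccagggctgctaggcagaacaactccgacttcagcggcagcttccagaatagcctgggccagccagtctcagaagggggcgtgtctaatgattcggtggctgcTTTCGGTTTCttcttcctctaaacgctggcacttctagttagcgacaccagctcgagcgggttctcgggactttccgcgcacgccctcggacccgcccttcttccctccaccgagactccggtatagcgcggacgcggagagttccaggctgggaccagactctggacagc
These lie at chr2:234005477-234005776 (plus strand), chr1:241527076-241527375 (plus strand), chr20:4656982-4657281 (minus strand) and chr20:4668494-4668793 (minus strand). Letters in a window are a description of the sequence and show no binding.

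Of the 10 tested class II genes 9 rose and 0 fell (median 2.05). RT1-Bb had log2 levels of 9.45, 9.30 and 9.19 on day 90, 8.85, 9.23 and 9.85 on day 60, and 4.71, 6.75 and 5.50 in uninjured cord (difference 3.66, SE 0.56, adjusted p = 8.4e-07). RT1-Da had 12.40, 12.45 and 12.42 on day 90, 12.50, 12.53 and 12.46 on day 60, and 9.46, 9.09 and 9.52 in uninjured cord (difference 3.1, SE 0.17, adjusted p = 9.8e-17). The late arrays of these 2 genes all lay above the uninjured ones. RT1-Db1 (3.45), RT1-Ba (2.74) and Cd74 (2.55), the invariant chain, rose alongside, and RT1-DMa, which helps load the peptide, by less (0.76, SE 0.13). Class I and interferon genes rose in 23 of 25 cases (median 1.35). Bst2, tetherin, rose by 2.88, Gbp2, a guanylate-binding protein, by 2.54, Mx1, an antiviral GTPase, by 2.54, the proteasome subunit gene Psmb9 by 2.52, the chemokine gene Cxcl9 by 1.09 and B2m, the light chain of class I, by 0.71. Irf7 had log2 levels of 8.43, 8.72 and 8.97 at the lowest, median and highest late array, and 8.68, 7.51 and 8.72 in uninjured cord and did not pass the test (difference 0.42, SE 0.29, adjusted p = 0.2). Ifit3, Psmb8 and Tap1, whose promoters are shown, rose by 2.24, 2.05 and 1.62 and are named for their sequences, after their values were seen.

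T cell genes rose in 17 of 19 cases with smaller differences (median 0.70). Cd8a, a co-receptor of cytotoxic T cells, had log2 levels of 6.04, 6.07 and 5.97 on day 90, 6.26, 6.02 and 6.59 on day 60, and 4.70, 4.77 and 4.37 in uninjured cord (difference 1.55, SE 0.19, adjusted p = 1.4e-08). Ccl5 (1.43, SE 0.25), Klrd1 (1.31), Cd3e (0.95), perforin, Prf1 (0.93), and Cd4 (0.44) rose. The list for B cells, plasma cells and lymphoid chemokines rose in 8 of 14 cases (median 1.0), carried by Ccl21, by Cxcl13, which draws B cells into follicles (3.31, SE 0.41), by the plasma cell proteoglycan Sdc1 (1.86) and by Ccl19 (1.45). The B cell receptor subunit gene Cd79b had log2 levels of 5.13, 5.28 and 5.44 at the lowest, median and highest late array, and 5.22, 5.05 and 5.02 in uninjured cord (difference 0.19, SE 0.28, adjusted p = 0.54). Of 32 chemokine, cytokine and receptor genes 23 rose and 1 fell (median 1.19). Ccl2, which draws monocytes, had log2 levels of 9.90, 9.59 and 9.61 on day 90, 9.51, 9.25 and 9.25 on day 60, and 4.48, 5.23 and 5.55 in uninjured cord (difference 4.43, SE 0.16, adjusted p = 3.3e-21). Ccl11, an eosinophil chemokine (4.04, SE 0.30), Cxcl12 (3.96, SE 0.12), Il1b (1.59) and Tgfb1 (1.54) rose, and the neuronal chemokine gene Cx3cl1 fell (-0.51, SE 0.20), though without uninjured replicate 2 its difference was -0.40 (adjusted p = 0.13). Neutrophil genes S100a9 (2.22, SE 0.65) and S100a8 (2.21, SE 0.69) rose among 7 of 10 granulocyte and mast cell genes.

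Most genes of neuron identity fell, by unequal amounts. None of the 22 tested genes of neuron identity and cytoskeleton rose and 17 fell by limma (median -1.75). Ina, alpha-internexin, a filament of central neurons, had log2 levels of 8.59, 8.16 and 8.37 on day 90, 6.67, 7.30 and 6.96 on day 60, and 11.21, 11.00 and 11.45 in uninjured cord (difference -3.54, SE 0.22, adjusted p = 2.9e-15). Rbfox3, the gene of the nuclear antigen NeuN, had 8.51, 7.68 and 7.92 on day 90, 6.96, 7.40 and 5.14 on day 60, and 10.02, 10.80 and 10.34 in uninjured cord (difference -3.12, SE 0.46, adjusted p = 4.2e-07). For both genes the groups were apart and day 90 read higher than day 60. Vsnl1 (-3.04, SE 0.64), Snap25 (-1.75, SE 0.60), Uchl1 (-1.75, SE 0.44) and Tubb3 (-1.12, SE 0.47) also fell, but for Tubb3 the difference was -0.89 without day 60 replicate 3, -0.98 without day 90 replicate 2, -1.0 without uninjured replicate 2 and -1.16 without uninjured replicate 3 (adjusted p 0.09, 0.071, 0.11 and 0.062). The neurofilament genes Nefl (difference -1.33, SE 0.62, adjusted p = 0.055) and Nefm (difference -1.21, SE 0.60, adjusted p = 0.072), and Stmn2, a growth cone protein (difference -0.93, SE 0.58, adjusted p = 0.15), did not pass the test, though Nefl did without day 60 replicate 2 (-1.5, adjusted p = 0.038). A second probe set of Nefl fell by 2.25 (adjusted p = 0.00068), one of Stmn2 by 1.17 (adjusted p = 0.037), and the mean of the Nefl probe sets differed by -1.79 (adjusted p = 0.0071). Nefm had log2 levels of 13.27, 12.55 and 13.10 on day 90, 13.05, 13.33 and 11.64 on day 60, and 13.97, 14.08 and 14.05 in uninjured cord. All late readings of Nefm lay below all uninjured ones, but they were widely spread, most of all on day 60. With the compared groups fitted alone by limma, Nefl, Nefm and Stmn2 passed (adjusted p 0.0043, 0.0065 and 0.042).

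Inhibitory transmission showed the lowest median of all lists, with 14 of 15 genes lower and 1 higher (median -2.46). The exception was Npy (1.06, SE 0.26), a peptide that injured sensory neurons also make, and the glycine receptor subunit gene Glra1 fell by less than the rest (-0.68, SE 0.10). Of 20 genes of excitatory transmission 15 fell and 0 rose (median -1.47). These included the AMPA receptor subunit genes Gria3 (-3.60, SE 0.26) and Gria2 (-2.67, SE 0.36), the metabotropic receptor gene Grm3 (-2.90), the vesicular glutamate transporter gene Slc17a6 (-2.63) and Grin1 (-2.0). The choline transporter gene Slc5a7 (-3.2, SE 0.43), Chodl (-2.81), a marker of fast motor neurons, and Chat (-2.72, SE 0.16), which makes acetylcholine, fell. In the same list, of cholinergic and motor neurons, Isl2 (1.13) and Calca (2.13, SE 0.63), the gene of calcitonin gene-related peptide, rose. The level of this list relative to uninjured cord was -1.07 to -0.07 on day 90 and -1.60 to -0.73 on day 60. In uninjured cord it was -0.02 to 0.02. Without a filter on dim genes 3 of 11 members rose and 5 fell (median 0.23).

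Ion channel genes went both ways. Of 21 genes 14 fell, including Kcnc1, Kcnd2 (-3.71), Scn1a (-3.47), Kcna1 (-2.06) and Kcna2 (-1.88), and 5 rose (median -1.21). The 5 that rose were Scn11a, Scn9a and Scn10a, which are sodium channels of peripheral sensory neurons, with Cacna1c (0.59) and Kcnj3 (0.32), whose probe sets pointed in opposite directions. The difference of Kcnj3 was 0.28 without day 60 replicate 3 and 0.30 without uninjured replicate 2 or 3 (adjusted p 0.055, 0.076 and 0.073). Scn9a had log2 levels of 8.58, 7.04 and 8.24 on day 90, 8.60, 9.24 and 6.83 on day 60, and 5.71, 5.67 and 5.75 in uninjured cord (difference 2.38, SE 0.66, adjusted p = 0.0019). Sensory ganglion genes rose in 6 of 9 cases (median 1.73). Avil, advillin, had log2 levels of 11.44, 10.21 and 10.86 on day 90, 11.15, 11.61 and 9.60 on day 60, and 6.90, 7.19 and 6.97 in uninjured cord (difference 3.79, SE 0.42, adjusted p = 1.2e-09). P2rx3, an ATP receptor of pain fibres, rose by 2.36 and Trpv1, the capsaicin receptor, by 1.73. The mean level of the sensory ganglion list relative to uninjured cord was 2.20, 1.03 and 1.76 on day 90 and 1.88, 2.23 and 0.69 on day 60, against -0.06, 0.08 and -0.03 in uninjured cord. Day 60 replicate 3, the highest for muscle, was the lowest for this list, and whether ganglia or roots were part of the segment was not tested.

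**Figure D3:**
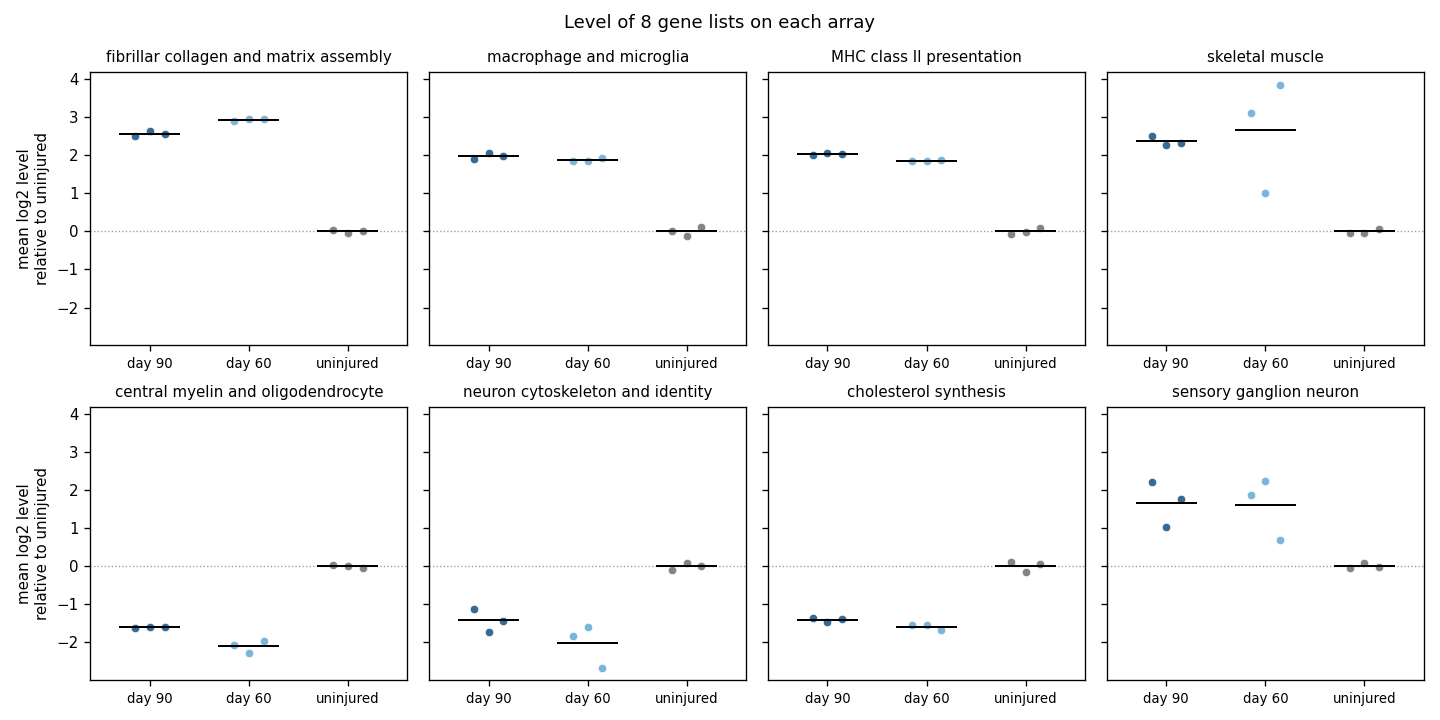
Mean log2 level of 8 gene lists relative to the uninjured mean, 1 point per array, with day 90 at the left, day 60 in the middle and uninjured cord at the right. Collagen and macrophage levels lie above 0 on all 6 late arrays and myelin, neuron and cholesterol levels below 0, whereas muscle and sensory ganglion levels vary widely between the day 60 arrays.

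Myelin genes fell as a group. Of 23 genes of central myelin and oligodendrocytes 21 fell and 0 rose (median -2.05). Mog, a surface protein of central myelin that Schwann cells lack, had log2 levels of 9.96, 10.10 and 10.10 on day 90, 9.37, 8.74 and 9.30 on day 60, and 12.58, 12.15 and 12.50 in uninjured cord (difference -2.81, SE 0.41, adjusted p = 3.9e-07). Olig1, a transcription factor of the lineage, had 9.92, 9.90 and 9.92 on day 90, 9.09, 8.37 and 9.32 on day 60, and 12.21, 12.60 and 12.17 in uninjured cord (difference -2.90, SE 0.39, adjusted p = 7.7e-08). All late arrays lay below all uninjured arrays. Ermn (-2.83) and Mobp (-2.43) fell by a similar amount. Mbp, which both kinds of myelin contain, fell by less at the probe set used (-0.78, SE 0.17). That probe set averaged 14.42 over the series, near the highest value of 15.00, and the other Mbp probe sets differed by -1.34 and -1.70. In oligodendrocyte precursors Nkx2-2 fell (-2.89, SE 0.33), and Pdgfra, which fibroblasts share, rose (1.58, SE 0.09). The level of the precursor list was -1.03 to -0.44 on the late arrays and -0.09 to 0.11 in uninjured cord. The Schwann cell list was divided, with 6 of 15 higher and 6 lower (median -0.17). Those that rose included Egr2, the factor that drives peripheral myelination (3.55, SE 0.16), Dhh (1.72, SE 0.19), Prx, periaxin (1.56, SE 0.28), and Ngfr (2.31, SE 0.25). Egr2 had log2 levels of 10.48, 10.40 and 10.34 on day 90, 10.25, 10.18 and 10.79 on day 60, and 6.52, 7.37 and 6.67 in uninjured cord and is also an immediate early gene. Mag, found in both kinds of myelin, fell (-2.66, SE 0.38).

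Genes that make cholesterol and fatty acids fell almost without exception. All 18 tested cholesterol genes fell (median -1.59), from Cyp51 (-2.16, SE 0.16), Mvd (-2.12) and Hsd17b7 (-2.04) to Fdft1 (-1.99), Sqle (-1.76) and Idi1 (-1.75). Sqle, squalene epoxidase, had log2 levels of 9.72, 9.54 and 9.75 on day 90, 9.76, 9.79 and 9.45 on day 60, and 11.70, 11.20 and 11.39 in uninjured cord. Its groups did not overlap. Of 14 fatty acid genes 13 fell (median -1.05), among them Scd (-2.26), Elovl2 (-1.90), Elovl6 (-1.73) and Fasn (-1.22), and Srebf1, a regulator of the pathway, rose (0.97, SE 0.14).

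Astrocyte genes moved in both directions, 4 of 20 up and 12 down (median -0.67). Gfap, the filament gene that reactive astrocytes raise, had log2 levels of 13.97, 13.85 and 13.98 on day 90, 13.70, 13.46 and 13.79 on day 60, and 13.78, 13.88 and 13.76 in uninjured cord (difference -0.02, SE 0.38, adjusted p = 0.97), with overlapping groups. Vim, a filament that fibroblasts and macrophages also make, rose (2.88, SE 0.07), as did Nes (1.15, SE 0.14), Serpina3n (0.99) and Gjb6 (0.69). The glutamate transporter gene Slc1a2 (-2.10, SE 0.21) and Slc7a10 (-2.50, SE 0.13) fell. Aqp4, the water channel of astrocyte endfeet, had log2 levels of 12.67, 12.62 and 12.77 on day 90, 12.83, 12.69 and 12.80 on day 60, and 13.36, 12.85 and 13.02 in uninjured cord and did not pass the test (difference -0.35, SE 0.51, adjusted p = 0.55), though a dimmer probe set of Aqp4 fell by 1.17 (adjusted p = 1.1e-07) and the one used passed with the groups compared alone (adjusted p = 0.014). Among genes of neural progenitors 5 of 16 rose and 6 fell, with Hes1 (2.67) and Sox4 (1.67) higher and Sox2 (-0.79, SE 0.21) and the neuroblast gene Dcx (-1.31, SE 0.17) lower, and the number that fell went to 3 without uninjured replicate 2. With the mean of its probe sets Sox2 differed by -0.09 (adjusted p = 0.52). In the ependymal list 2 of 8 rose, Tekt2 by 2.15, and 4 fell, among them Tekt1 (-1.21).

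Ntf3, the rat gene of the protein carried by the tube, lay under the filter on dim genes and was not tested, with log2 levels of 5.06, 5.15 and 5.30 on day 90, 5.42, 5.28 and 5.60 on day 60, and 4.96, 4.75 and 4.74 in uninjured cord. The array reads the rat's own transcript, not the protein supplied. Its receptor gene Ntrk3 fell (-0.78, SE 0.21), with log2 levels of 7.44, 6.97 and 7.15 on day 90, 6.88, 6.96 and 5.98 on day 60, and 7.57, 7.79 and 7.67 in uninjured cord, and its groups did not overlap. Ntrk2, the receptor of brain-derived neurotrophic factor, fell (-0.77, SE 0.27), though without uninjured replicate 2 its difference was -0.67 (adjusted p = 0.063), and Bdnf itself fell (-0.83, SE 0.17), with probe sets that gave different calls. Of 20 neurotrophic genes 7 rose and 9 fell (median -0.07). Among those that rose were Igf2, Igf1 (2.60, SE 0.09), a growth factor of macrophages and fibroblasts, Ngfr, Gfra3 (2.42, SE 0.20), a receptor of sensory neurons and Schwann cells, and Il6st (0.84).

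Genes of axon growth were divided. Atf3, which injured neurons, Schwann cells and macrophages raise, had log2 levels of 10.03, 10.07 and 10.05 on day 90, 9.60, 9.67 and 10.31 on day 60, and 5.54, 5.30 and 5.53 in uninjured cord (difference 4.50, SE 0.14, adjusted p = 4.7e-23). Klf6 (2.06) and Jun (1.58) also rose. Gal for galanin (-2.53), Dpysl5 (-2.36) and Basp1 (-1.19) fell, and Gap43, a growth cone protein, had log2 levels of 10.94, 11.43 and 11.93 at the lowest, median and highest late array, and 11.83, 11.83 and 11.95 in uninjured cord and did not pass the test (difference -0.44, SE 0.21, adjusted p = 0.065), though it did without day 90 replicate 1 (-0.50, adjusted p = 0.045). In all 6 of 21 rose and 9 fell (median -0.44). Axon guidance genes were as mixed, 16 of 36 higher and 13 lower (median 0.11). Epha3 (4.42, SE 0.15) and Nrp1 (2.91, SE 0.12), a receptor for semaphorins, rose. So did the guidance cues Sema3c (2.31, SE 0.13) and Slit2 (1.35, SE 0.13), and of all these Slit2 had probe sets of opposite direction. The myelin-borne inhibitors Omg (-2.09, SE 0.31), Mag and Rtn4 (-0.52), and Epha4 (-0.97, SE 0.21), fell, while the Nogo receptor gene Rtn4r rose by 0.36.

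Immediate early genes rose in 15 of 18 cases (median 1.71), Fos by 2.23, Dusp1 by 2.91, Ier3 by 2.71, Egr1 by 2.17 and Junb by 1.23, and Arc, a gene of active neurons, fell (-0.38, SE 0.12). Cell cycle genes rose in 19 of 25 cases with a small median (0.54): Bub1 (1.58), Aurkb (1.5), Cdk1 (1.18, SE 0.11) and Top2a (1.09, SE 0.12) were higher, and Ccne1 (-1.49) and Aurka (-0.37) were lower. All 18 tested cytosolic ribosomal protein genes rose (median 0.56) and 21 of 22 genes of the mitochondrial respiratory chain fell (median -0.63). These counts were 18 and 20 under quantile normalization and under scaling to the 75th percentile. Rpl7 rose by 0.79, and Ndufa5 (-1.07) and Cox5a (-1.06) fell. In the hypoxia and glycolysis list Adm, adrenomedullin (2.60, SE 0.20), Ldha (1.41) and Hk2 (0.60) rose, Hk2 standing at 0.31 with the beta-actin gap as a covariate (adjusted p = 0.065), and 12 of 19 genes fell, among them the neuronal glucose transporter gene Slc2a3 (-1.40) and Egln3 (-1.95). Hox genes, which mark position along the body, gave 3 higher and 9 lower of 16. Hoxc5 (1.79, SE 0.15), Hoxc4 (1.01) and Hoxc8 rose, and Hoxa10 (-2.08, SE 0.29) and Hoxd9 (-1.68, SE 0.28), which belong to lower levels, fell. The level of this list was -0.62 to -0.26 on the late arrays and -0.41 to 0.36 on the uninjured ones, so the groups overlapped. In the late NT3 rostral segment it was -0.66 to -0.54, so a low level was not particular to the lesion site.

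Tissue from outside the cord was read from 4 marker lists. Skeletal muscle genes rose in 19 of 24 cases (median 2.17), Mb for myoglobin by 5.10, Acta1 by 4.18 and Ckm by 3.77. Myh2 had log2 levels of 10.21, 9.66 and 9.88 on the day 90 arrays, 10.16, 8.08 and 11.89 on the day 60 arrays, and 4.46, 4.50 and 4.34 on the uninjured arrays. Day 60 replicate 2 read lowest and the other late arrays of Myh2 lay far above uninjured cord. The 2 members that fell were Pvalb (-2.47), which neurons also make, and Mylk2 (-0.24), the last at -0.18 without uninjured replicate 3 (adjusted p = 0.12). With the muscle level of each array as a covariate 7769 of all tested genes passed, a count that includes any gene that had not passed without it. Outside the muscle list the named genes Snap25 (-1.04, adjusted p = 0.23), Elovl2 (-1.15, adjusted p = 0.076), Serpina3n (0.70, adjusted p = 0.18), Cxcl9 (0.56, adjusted p = 0.25) and Plvap (0.19, adjusted p = 0.39) no longer passed. Neither did Ntrk2 (-0.49, adjusted p = 0.22), Ntrk3 (-0.33, adjusted p = 0.23), Tubb3 (-0.74, adjusted p = 0.28), Cx3cl1 (-0.35, adjusted p = 0.24), Arc (-0.32, adjusted p = 0.076) and Kcnj3 (0.28, adjusted p = 0.14). Adipocyte genes rose in 7 of 12 cases and fell in 4 (median 1.03). Adipoq, adiponectin, a hormone of fat cells, had log2 levels of 5.22, 5.40 and 4.93 on day 90, 7.21, 6.50 and 8.59 on day 60, and 5.03, 4.90 and 4.78 in uninjured cord (difference 1.41, SE 0.37, adjusted p = 0.0012). Its day 60 arrays read highest and the day 90 arrays lay near or within the uninjured range. The adipocyte level relative to uninjured cord was 0.78 to 0.89 on day 90, 1.10 to 2.02 on day 60 and -0.04 to 0.05 in uninjured cord. Bone genes Ibsp (3.21, SE 0.58) and Comp (2.06, SE 0.40) rose among the 4 of 11 bone and cartilage genes that did. Of 8 erythrocyte genes 2 rose, Gypc (3.38) and Rhag (0.73), and 1 did without day 60 replicate 2.

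Day 90 was then set against day 60, a comparison in which the uninjured cords cancel. Of the tested genes 2391 (19.9%) passed the test, 1410 higher on day 90 (11.7%) and 981 lower (8.15%), but the difference was at least 2-fold for 87 (0.722%) and 23 (0.191%) alone. Scaling to the 75th percentile gave 1125 higher and 1386 lower, quantile normalization 1320 and 1307. The count moved by over 1.5 times with any of 4 arrays left out: 908 without day 90 replicate 1, 1339 without day 90 replicate 2, 1124 without day 60 replicate 3 and 1400 without day 60 replicate 2. The leading genes higher on day 90 included Pnma8b (2.52, SE 0.53) and the kinesin genes Kif5c (1.96, SE 0.46) and Kif1a (1.82, SE 0.41), with Dpysl3 (1.96), Dao (1.85) and Sfxn5 (1.83). Pnma8b had log2 levels of 8.14, 7.90 and 7.79 on day 90, 5.28, 5.88 and 5.09 on day 60, and 9.86, 9.11 and 10.25 in uninjured cord. Both late groups of Pnma8b lay below uninjured cord, day 60 further than day 90. Of the neuron identity list 4 of 22 genes were higher on day 90 (median 0.52). Slc32a1 was higher on day 90 too (1.34). Of 72 calls among the 349 genes open to naming, 42 ended with 1 array left out. Kif5c was at 1.44 without day 60 replicate 3 (adjusted p = 0.053).

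Genes lower on day 90 than on day 60 were led by Adipoq (-2.25, SE 0.43), Pck1 (-1.83, SE 0.43), Plin1 (-1.60, SE 0.39), Atp8b1 (-1.52), Mmp9 (-1.49, SE 0.47) and Lilrb4 (-1.45), the first 3 being active in fat cells. Without day 60 replicate 3 Pck1 was at -1.19 and Plin1 at -0.94 (adjusted p 0.059 and 0.082), and Mmp9 was at -0.81 without day 60 replicate 2, -1.47 without day 90 replicate 1 and -1.44 without day 90 replicate 2 (adjusted p 0.24, 0.08 and 0.074). Fabp4 (-1.42), Lpl (-1.34) and Cd36 (-1.24) were lower as well. Of the adipocyte list 5 of 12 genes were lower and 0 higher, and of the lipid handling list 6 of 14 were lower and 1 higher (median -0.0166). Matrix genes were lower on day 90 in 11 of 27 cases and higher in 0 (median -0.32, against 0.0105 over all genes), including Postn (-1.13, SE 0.20) and Lox (-0.85, SE 0.16). Mmp12 (-1.20, SE 0.22) and Top2a (-0.65) were lower. Genes of the mitochondrial respiratory chain were higher on day 90 in 9 of 22 cases, among them Uqcrfs1 (0.38).

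The late NT3 lesion site was next compared with the late lesion site of LC rats, which had no tube. Of the tested genes 4542 (37.7%) passed, 1801 higher in NT3 (15.0%) and 2741 lower (22.8%), and at least 2-fold for 442 (3.67%) and 102 (0.847%). The median over all tested genes was -0.06. One class I gene, RT1-CE10, divided the LC arrays, at 11.60, 11.06 and 11.78 on day 90 and 7.73, 7.99 and 8.14 on day 60, against 7.54 to 7.89 in late NT3 arrays, and its part in this comparison was not tested beyond the days taken singly. Day 90 alone gave 3474 genes and day 60 alone 3099.

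Muscle genes led those higher in NT3, Myl1 (4.14), Myl11 (3.99), Myh2 (3.83), Mb (3.73), Acta1 (3.71) and Tnnc2 (3.51), and 20 of 24 of the list were higher. The muscle level was 1.0 to 3.84 in late NT3 arrays and -0.30 to 1.23 in late LC arrays. Neuronal genes were higher in NT3 as well: 19 of 22 in the identity list (median 1.67), 13 of 15 in inhibitory transmission (median 1.01) and 9 of 10 in the motor list (median 2.03). Snap25, a vesicle fusion protein, had log2 levels of 11.19, 12.19 and 12.55 (lowest, median and highest array) in late NT3 and 8.50, 10.17 and 11.22 in late LC (difference 2.26, SE 0.49, adjusted p = 0.00061). Scn1a had 7.18, 8.16 and 8.48 (lowest, median and highest array) in late NT3 and 4.26, 5.30 and 6.86 in late LC (difference 2.67, SE 0.46, adjusted p = 4.6e-05). Nefm (2.19, SE 0.49), Stmn2 (2.09, SE 0.48), Tubb3 (1.79, SE 0.38) and Gad1 (2.16, SE 0.36) were higher too. Sensory ganglion genes were higher in 8 of 9 cases (median 1.53), Calca by 2.30 and Tac1 by 2.15, and the level of that list was 0.69 to 2.23 in NT3 against -0.82 to 0.98 in LC. Whether roots, ganglia or muscle taken with the segment bear on the neuronal genes was not tested. Central myelin genes were higher in 18 of 23 cases (median 0.70), Mobp by 1.93 and Mog by 1.48. On day 60 alone Tac1 (1.62, adjusted p = 0.094), Gad1 (1.09, adjusted p = 0.11), Mobp (0.94, adjusted p = 0.14) and Mog (0.69, adjusted p = 0.29) did not pass, and with the muscle level as a covariate over both days Snap25 differed by 2.86 (adjusted p = 0.00086), Gad1 by 2.26 (adjusted p = 0.00055) and Mog by 1.87 (adjusted p = 0.0014).

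Genes lower in NT3 than in LC were led by the immunoglobulin gene Ighl2 (-4.48, SE 0.65), Mmp3 (-4.33, SE 0.39), Ccl9 (-3.27), Mzb1 (-2.78, SE 0.49), Ubd (-2.76) and Jchain (-2.60). Mmp3, stromelysin, had log2 levels of 5.19, 6.55 and 7.82 (lowest, median and highest array) in late NT3 and 9.97, 10.76 and 11.77 in late LC. Mzb1, a plasma cell chaperone, had 5.43, 5.63 and 5.86 (lowest, median and highest array) in late NT3 and 7.33, 8.38 and 9.67 in late LC. Of the B cell and plasma cell list 8 of 14 were lower (median -0.99), with Cxcl13 at -2.34 and Cd79b at -1.22, and T cell genes were lower in 11 of 19 cases, Cd3e by a difference of -1.32. Class II genes were lower in 9 of 10 cases (median -0.47), collagen and assembly genes in 23 of 27 (median -0.53) and cell cycle genes in 15 of 25 (median -0.27). C3 (-2.17, SE 0.27), Spp1 (-1.69, SE 0.15), Postn (-1.34, SE 0.14) and Ccl2 (-1.43, SE 0.13) were lower. Of the macrophage list 2 of 21 were higher in NT3 and 4 lower (median -0.12). Gpnmb, 1 of those higher, differed by 0.21 (adjusted p = 0.006), and by 0.14 on day 90 alone (adjusted p = 0.2).

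**Figure D4:**
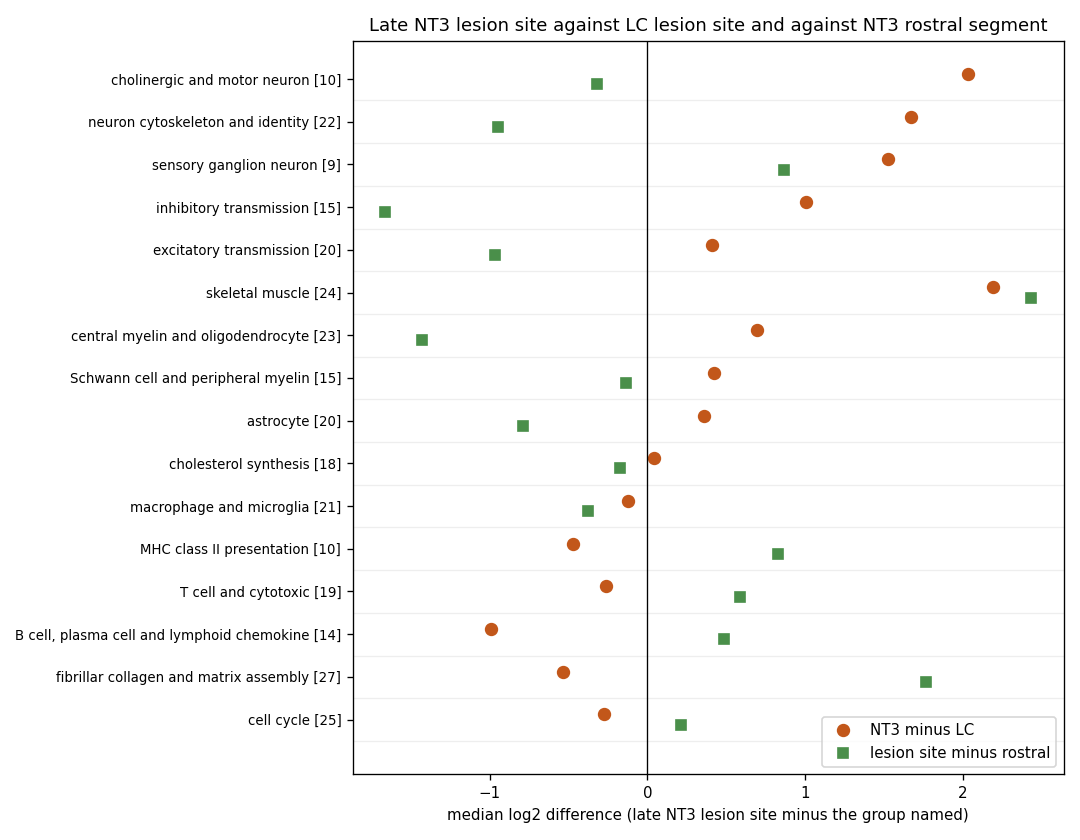
Median log2 difference of 16 gene lists at the late NT3 lesion site against the late LC lesion site (circles) and against the late NT3 rostral segment (squares). Neuron and motor lists are higher in NT3 than in LC, at 1.67 and 2.03, and lower than in the rostral segment, at -0.95 and -0.32.

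Against the rostral segment of NT3 rats at the same times, 7954 genes (66.0%) passed, 4068 higher at the lesion site (33.8%) and 3886 lower (32.3%). Muscle genes again led those that were higher, with Car3 (4.77) beside Myl1 (6.65), and Htr2c (-3.43), Olfm3 (-3.12), Gad1 (-3.11), Pnma8b (-3.08), Slc32a1 (-3.03) and Gabra5 (-2.89) those that were lower. Collagen genes were higher at the lesion site in 26 of 27 cases (median 1.77, against 0.01 over all genes), basement membrane genes in 15 of 15 (median 1.79). Macrophage genes were not part of this: 3 of 21 were higher and 14 lower at the lesion site (median -0.38). Gpnmb had log2 levels of 13.88, 14.10 and 14.38 (lowest, median and highest array) at the lesion site and 14.17, 14.26 and 14.37 in the rostral segment (difference -0.14, adjusted p = 0.13). P2ry12 had 9.32, 9.62 and 9.89 (lowest, median and highest array) at the lesion site and 10.64, 11.01 and 11.07 in the rostral segment (difference -1.32, SE 0.14, adjusted p = 6.7e-13), so the microglial gene was lower at the lesion site. Mrc1 was higher there (1.48, SE 0.20). Class II genes divided, 6 of 10 higher at the lesion site and 4 lower (median 0.83). RT1-Bb (1.91), RT1-Db1 (1.88) and Cd74 (1.47) were among the higher ones, and RT1-DMa (-0.41, SE 0.09) among the lower. Cholesterol genes divided, 8 of 18 lower and 2 higher (median -0.18). Gfap was lower at the lesion site, with log2 levels of 13.46, 13.82 and 13.98 (lowest, median and highest array) at the lesion site and 14.30, 14.38 and 14.44 in the rostral segment (difference -0.58, SE 0.20, adjusted p = 0.01). With the muscle level as a covariate the differences were -0.19 for Gfap (adjusted p = 0.56) and 1.54 for RT1-Bb (adjusted p = 0.065).

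Against the same lesion site on days 20 and 30, 4563 genes (37.9%) passed, 1620 higher late (13.5%) and 2943 lower (24.4%), a split of 2050 and 2352 with scaling to the 75th percentile. Lower late were, among matrix and other genes, Tnn (-3.07, SE 0.27), Cthrc1 (-2.92, SE 0.13), Prss35 (-2.61), Bglap (-2.55), Mmp13 (-2.33) and Postn (-2.22, SE 0.14), and 25 of 27 collagen and assembly genes (median -0.74, against -0.06 over all genes). The proteoglycans that bind collagen differed from them, with 1 of 9 higher and 3 lower late (median -0.02). Cell cycle genes were lower late in 24 of 25 cases (median -0.72), Cdk1 by a difference of -1.79 and Top2a of -1.49. Astrocyte genes were higher late in 16 of 20 cases (median 0.81). Aqp4 had log2 levels of 12.62, 12.73 and 12.83 (lowest, median and highest array) late and 10.77, 11.31 and 11.93 on days 20 and 30 (difference 1.43, SE 0.41, adjusted p = 0.0075). Higher late were also Spock3 (2.04), Htr2c (1.86), Coch (1.74), Cd5l (1.68), Scn1a (1.66) and Myl2 (1.57), the last at 1.15 without day 60 replicate 3 (adjusted p = 0.053). Of the macrophage list 2 of 21 were higher and 3 lower (median 0.02), and of the skeletal muscle list 0 and 1 of 24.

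**Figure D5:**
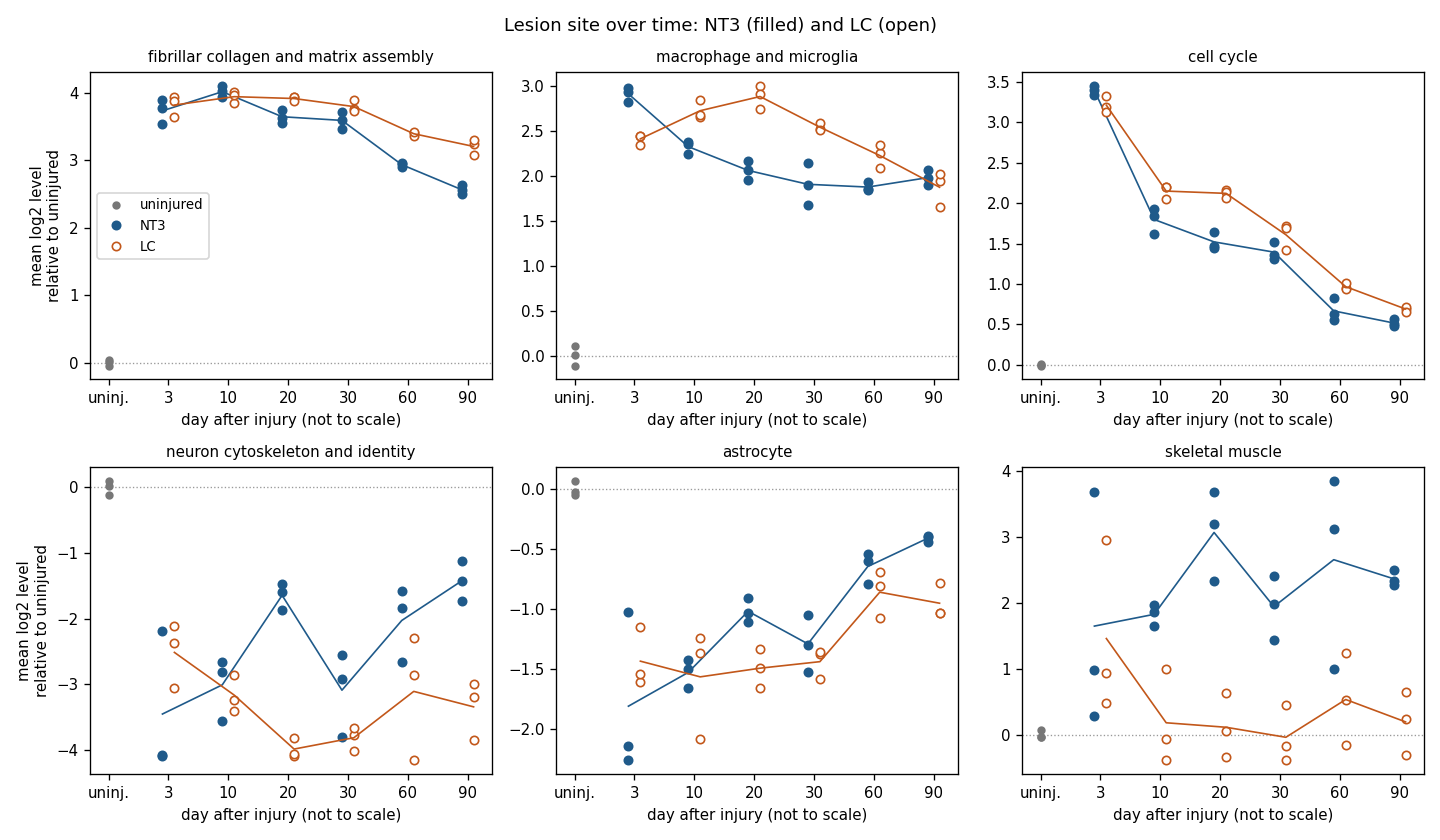
Mean log2 level of 6 gene lists relative to uninjured cord at the lesion site, 1 point per array, from uninjured cord through days 3 to 90, for NT3 (filled) and LC (open). Lines join group means, and the collagen level peaks before the late days while the neuron level stays under 0 on every late NT3 array.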

How the data were processed

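Total RNA of 5 mm cord segments was extracted with Trizol and RNeasy columns and hybridised as biotinylated cRNA to 1-colour Affymetrix rat arrays, 1 sample per array, per the labels' protocols. The authors deposited log2 values per probe set, made with GCOS, RMA and Affymetrix Expression Console per the submitters' processing notes; which arrays were normalized together is not given in the sources used here, and the values were used as deposited. Of 31099 probe sets, 57 controls were left out, 20826 had 1 gene symbol in the platform annotation, 436 had several and 9780 had none; 20758 matched RefSeq by gene ID and 0 symbols changed. Each of 14217 genes was represented by its probe set with the highest mean. Genes above the 40th percentile of their array on at least 3 arrays were tested, 12044 in all, of which 4293 had more than 1 probe set.

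Group means were fitted with limma 3.58.1 (R 4.3.3; lmFit and eBayes) over 42 arrays, the 39 lesion site arrays and the 3 uninjured ones, with the rostral arrays added for the comparison with that segment. Adjusted p-values are Benjamini-Hochberg over all tested genes, with a threshold of 0.05, and the small number of arrays limits the precision. Samples were grouped by their titles. The members and the gene lists were chosen with earlier results of these data known, so no list was given a test; lists are described by counts and medians beside those of all tested genes. Genes were named by rule: the 12 highest and 12 lowest called genes whose groups did not overlap, the key genes of each list, up to 3 called members of each list with the largest difference, called members against the list's majority, and the 6 highest and 6 lowest called genes of every other comparison. Of the 349 tested genes this admits, the text gives a selection made after their values were seen, from which several genes whose calls ended with 1 array left out were dropped. A list's level on an array is the mean over its members of the log2 value minus the uninjured mean.

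Same-numbered arrays did not deviate together (correlations from -0.31 to 0.19, 1 of 9 over 0.1, 0 of 9 highest with the own number), so replicate numbers were not taken as pairs. On simulated data with 12044 genes, true log2 changes of 0.3, 0.6 and 1.2 were called for 8 of 67, 54 of 67 and 63 of 66 genes in the late against uninjured comparison, with 2 false calls. Only these genes were changed, with independent noise, whereas 71.9% of genes were called in the data. The simulated counts therefore do not give the sensitivity or the false calls of the comparison reported. Alternatives were other filters, quantile and 75th percentile scaling, the mean of a gene's probe sets, other sets of arrays in the fit, weights per array, the beta-actin gap as a covariate, a block on the replicate number, a prior both robust and trended, and each array left out. Chosen after the data were seen were the muscle level as a covariate and single days against LC.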

Additional observations from a re-analysis of the deposited data

Results flagged for a closer look

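Over the 6 late NT3 arrays, 11 of 314 gene or list levels checked had 1 array set apart from the rest by a larger share of the range than Dixon's critical value. In a single normal sample chance alone sets apart about 1 in 20. That rate need not hold here, because the arrays join day 60 and day 90. Groups of 3 were not checked. Day 60 replicate 2 was that array for the cartilage and bone level (1.51 above uninjured cord) and for the log2 levels of Acp5 (9.36), Bcan (8.94), Ibsp (9.65), Slc1a2 (5.37) and Tfrc (10.26). Day 60 replicate 3 stood apart for Cfd (11.31), Klf6 (10.63) and Snap25 (11.19), day 60 replicate 1 for Cd3e (7.62) and day 90 replicate 2 for Fos (11.29).

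The difference from uninjured cord was not the same on day 90 and day 60 for the genes named in that comparison, by the limma test of day 90 minus day 60. Those genes were picked because they passed it: of 349 genes that the naming rule admits 72 did, 38 higher and 34 lower on day 90, and 42 of these calls ended with 1 array left out. The log2 differences were 2.52 for Pnma8b, 1.96 for Kif5c, 1.82 for Kif1a and 1.34 for Slc32a1, all higher on day 90, while of the neuron identity list 4 of 22 genes were higher. Dpysl3 (1.96), Dao (1.85), Sfxn5 (1.83) and Uqcrfs1 (0.38) were also higher on day 90. Lower on day 90 were Adipoq (-2.25), Pck1 (-1.83), Plin1 (-1.60), Fabp4 (-1.42), Lpl (-1.34) and Cd36 (-1.24), while of the adipocyte list 5 of 12 genes were lower and of the lipid handling list 6 of 14, with 1 higher. So were Atp8b1 (-1.52), Mmp9 (-1.49), Lilrb4 (-1.45), Mmp12 (-1.20), Postn (-1.13), Lox (-0.85) and Top2a (-0.65).

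Probe sets without a single gene symbol take no part in the comparisons above. Of 5805 such probe sets past the filter, 3800 (65.5%) passed the test at the late lesion site against uninjured cord, 1682 higher and 2118 lower, and at least 2-fold for 593 and 946. The largest differences among them were 5.64 and 5.30 for those that rose, and -4.23 and -4.01 for those that fell.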

How the results depend on the processing

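Of 149 alternative values for the 7 counts of called genes, 142 stayed within 1.5 times the count reported. The day 90 against day 60 count was 3634 with the compared groups fitted alone and 5836 with array weights, and the late against days 20 and 30 count was 7417 with array weights. With 1 array left out the counts ran from 8112 to 8552 for late against uninjured cord, 8077 to 8287 for day 60, 7259 to 7486 for day 90, 908 to 1750 for day 90 against day 60, 3566 to 4544 for NT3 against LC, 7650 to 7860 for lesion site against rostral segment and 3824 to 4533 for late against days 20 and 30. The replicate number does not pair the samples, and as a replicate block it gave 8690, 8617, 7872, 2475, 4676, 7997 and 4651 in the same order. Of 7493 values for named genes 7390 kept direction and call, 59 lost the call, 29 gained it and 15 turned sign. These counts overstate stability, because several genes were left out of the text after their calls were seen to end with 1 array left out. Over all 349 genes that the naming rule admits, 1 array left out ended or turned 17 of 314 calls for late against uninjured cord, 42 of 72 for day 90 against day 60, 41 of 211 for NT3 against LC, 16 of 300 for lesion site against rostral segment and 43 of 165 for late against days 20 and 30. The muscle covariate gave 23 of the losses, more than any other alternative. Nefl, Gap43 and P2ry12 passed with the replicate block (adjusted p 0.041, 0.041 and 0.044), and all 3 passed with all arrays in one fit, where Nefm and Stmn2 did too. In that fit Lox, Mmp12 and Fabp4 did not pass between the days (adjusted p 0.075, 0.13 and 0.054). Nefl, Nefm, Stmn2, Gap43 and P2ry12 also passed with array weights and with the compared groups fitted alone. In the latter fit the adjusted p was 0.0058 for Gap43 and 0.006 for P2ry12. The signs that turned belong to genes that had not passed, except Kcnj3, at -0.21 with the mean of its probe sets (adjusted p = 0.016). Gfap was at 0.015 under 75th percentile scaling, 0.050 with array weights and 0.59 with the muscle covariate, and ran from -0.049 to 0.032 with 1 array left out. C3 was at 0.0060 after quantile normalization and ran from -0.14 to 0.019 with 1 array left out, and Spp1 ran from -0.014 to 0.39. Cldn5 was at -0.069 with the beta-actin covariate and ran from -0.051 to 0.16, Aqp4 was at 0.58 with the muscle covariate, and Cspg4 was at -0.093 with it and ran from -0.14 to 0.26. Of 987 list medians 897 kept within the spread between arrays, 84 moved further without a change of sign and 6 changed sign, and of 987 list counts 980 kept within 1.5 times. Among those 6 medians, that of Schwann cells was 0.073 and that of motor neurons 0.23 without a filter, axon guidance -0.048 and neurotrophic genes 0.29 with a filter at the 60th percentile, and with the muscle covariate neurotrophic genes 0.056 and muscle itself -0.073. With the beta-actin covariate Cx3cl1, Rhag and Tubb3 did not pass (adjusted p 0.055, 0.066 and 0.062). Other probe sets did not pass for Aif1, Cacna1c, Calca, Cd8a, Cdh1, Dcx, Epha4, Fos, Hapln4, Htr2c, Igf2, Nid1, RT1-Ba, Rtn4, Slc11a2, Slc2a3, Sox4, Top2a, Trpv1 and Tubb3. The cause of these changes was not tested.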
